A study of Mus musculus with 18 samples.

Results

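The genes described here are 10 immediate early genes that encode regulators of transcription: the zinc finger factors Egr1, Egr2, Egr3 and Egr4, the orphan nuclear receptors Nr4a1, Nr4a2 and Nr4a3, the Krüppel-like factors Klf10 and Klf4, and the nuclear protein Ier2. They were taken by symbol from a table of 18683 genes, and all 10 were listed. RNA was sequenced from prefrontal cortex and hippocampus of male mice on the C57BL/6J strain, with 3 libraries for each of 6 combinations of tissue and group. 5xFAD mice, which express mutated human transgenes under the neuronal Thy1 promoter and form amyloid plaques, received extracellular vesicles (EV) from human breast milk or PBS, and wildtype mice received PBS. All mice had 10 intravenous injections, 1 every 3 days, starting at 5 months of age and ending at 6 months, and brains were collected after behavioural testing and perfusion with cold PBS. No wildtype group given vesicles was analysed here, so the vesicles were compared with PBS in 5xFAD mice only.

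Immediate early genes are transcribed within minutes of a stimulus, without new protein synthesis. In neurons, synaptic activity and calcium entry act through kinases on factors already bound at their promoters: CREB at cAMP response elements, and SRF with its ternary complex partners at CArG boxes. The EGR and NR4A proteins then bind the promoters of later genes, and their transcripts decay quickly, so a level in dissected tissue reflects the recent past of the animal. Outside neurons, Egr1, Nr4a1 and Klf4 are also induced in vascular and myeloid cells.

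Promoter windows, from 250 bases before to 50 bases after a transcription start, were taken from RefSeq on build GRCm38.p6 for 6 of the 10 genes (Egr2, Egr4, Nr4a1, Nr4a2, Nr4a3 and Klf4). The deposited values were made on build GRCm39, and no coordinate was carried between builds. The windows below show 3 genes that were lower in 5xFAD PBS than in wildtype prefrontal cortex and Klf4, for which no difference was called. The windows of Nr4a2 and Egr4, for which no difference was called there either, are not shown. Capitals mark the cAMP response half-site TGACG, read on either strand (CGTCA on the printed one), and the CArG box. Egr2 has 5 annotated starts, and 4 of their windows hold a CArG box. The window shown (chr10:67537619-67537918, plus strand) is 1 of the 3 that hold it together with 2 half-sites. The Nr4a1 window lies at chr15:101266596-101266895 (plus strand), that of Nr4a3 at chr4:48045055-48045354 (plus strand) and that of Klf4 at chr4:55532426-55532725 (minus strand).
Egr2: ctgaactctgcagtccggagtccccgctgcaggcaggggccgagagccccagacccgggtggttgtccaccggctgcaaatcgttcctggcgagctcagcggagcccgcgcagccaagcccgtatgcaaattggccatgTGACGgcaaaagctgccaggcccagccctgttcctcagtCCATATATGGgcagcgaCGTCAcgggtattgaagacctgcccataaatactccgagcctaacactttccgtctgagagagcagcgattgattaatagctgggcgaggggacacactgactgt
Nr4a1: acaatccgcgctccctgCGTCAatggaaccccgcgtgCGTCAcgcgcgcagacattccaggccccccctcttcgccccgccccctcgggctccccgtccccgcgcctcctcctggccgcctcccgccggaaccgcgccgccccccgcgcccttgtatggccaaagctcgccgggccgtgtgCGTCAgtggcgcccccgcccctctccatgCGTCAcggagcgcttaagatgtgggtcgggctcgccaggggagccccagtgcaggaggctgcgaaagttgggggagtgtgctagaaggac
Nr4a3: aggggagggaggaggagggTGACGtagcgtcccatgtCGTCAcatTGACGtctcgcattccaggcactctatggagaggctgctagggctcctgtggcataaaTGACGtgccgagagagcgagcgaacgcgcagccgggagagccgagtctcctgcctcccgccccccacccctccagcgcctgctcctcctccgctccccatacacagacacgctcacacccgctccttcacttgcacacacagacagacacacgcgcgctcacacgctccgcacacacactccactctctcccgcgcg
Klf4: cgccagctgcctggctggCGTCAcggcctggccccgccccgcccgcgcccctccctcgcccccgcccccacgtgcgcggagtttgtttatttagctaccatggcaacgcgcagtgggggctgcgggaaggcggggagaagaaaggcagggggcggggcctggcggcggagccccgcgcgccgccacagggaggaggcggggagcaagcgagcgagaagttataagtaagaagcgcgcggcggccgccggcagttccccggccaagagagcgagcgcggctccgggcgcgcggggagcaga
The half-site occurred 4 times in the Nr4a1, Nr4a2 and Nr4a3 windows, 2 times in the Egr4 window and in the Egr2 window shown, and 1 time in the Klf4 window. Over all 32851 windows of this length, 20.8% held it at least 1 time and 1.03% held it 3 or more times. A CArG box, present in 1.63% of windows, lay at -72 to -63 from the start in the Egr2 window shown, between its 2 half-sites, and in no window of the other 5 genes matched. The EGR site GCGNGGGCG, on either strand in 5.55% of windows, occurred 2 times for Klf4 and 1 time each for Nr4a1 and Nr4a2. The full palindrome TGACGTCA (1.79% of windows) and the NR4A monomer site AAAGGTCA (1.51%) were in none of the members' windows. These matches describe the letters of the windows and say nothing of what was bound.

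Levels are given as deposited, in FPKM (fragments per kilobase of gene, scaled to the reads of the library), which allows levels to be set side by side between genes. Egr1 had the highest level of the 10 in all 6 groups, and in prefrontal cortex it averaged 35.8 ± 13.4 FPKM in 5xFAD EV, 47.4 ± 18.6 FPKM in 5xFAD PBS and 135 ± 28.4 FPKM in wildtype libraries (SD, n = 3 each). Egr2 and Klf4 were the lowest: Klf4, better known from endothelium and stem cells, stayed between 0.460 and 0.996 FPKM in all 18 libraries. For Egr1, Egr2, Egr3, Egr4, Nr4a1, Klf10 and Ier2 the highest of the 6 group means was that of wildtype prefrontal cortex. It did not overlap the next group for 6 of these 7, the exception being Ier2. Such gaps are common: wildtype prefrontal cortex did not overlap wildtype hippocampus for 33.8% of genes, in either direction. It did not overlap 5xFAD PBS prefrontal cortex for 14.7%. Nr4a2 and Nr4a3 were highest in wildtype hippocampus, where Nr4a3 overlapped both 5xFAD groups. In all, 39 of the 50 pairs of neighbouring groups in the members' orders overlapped, and no such count was made over all genes.

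**Figure D1:**
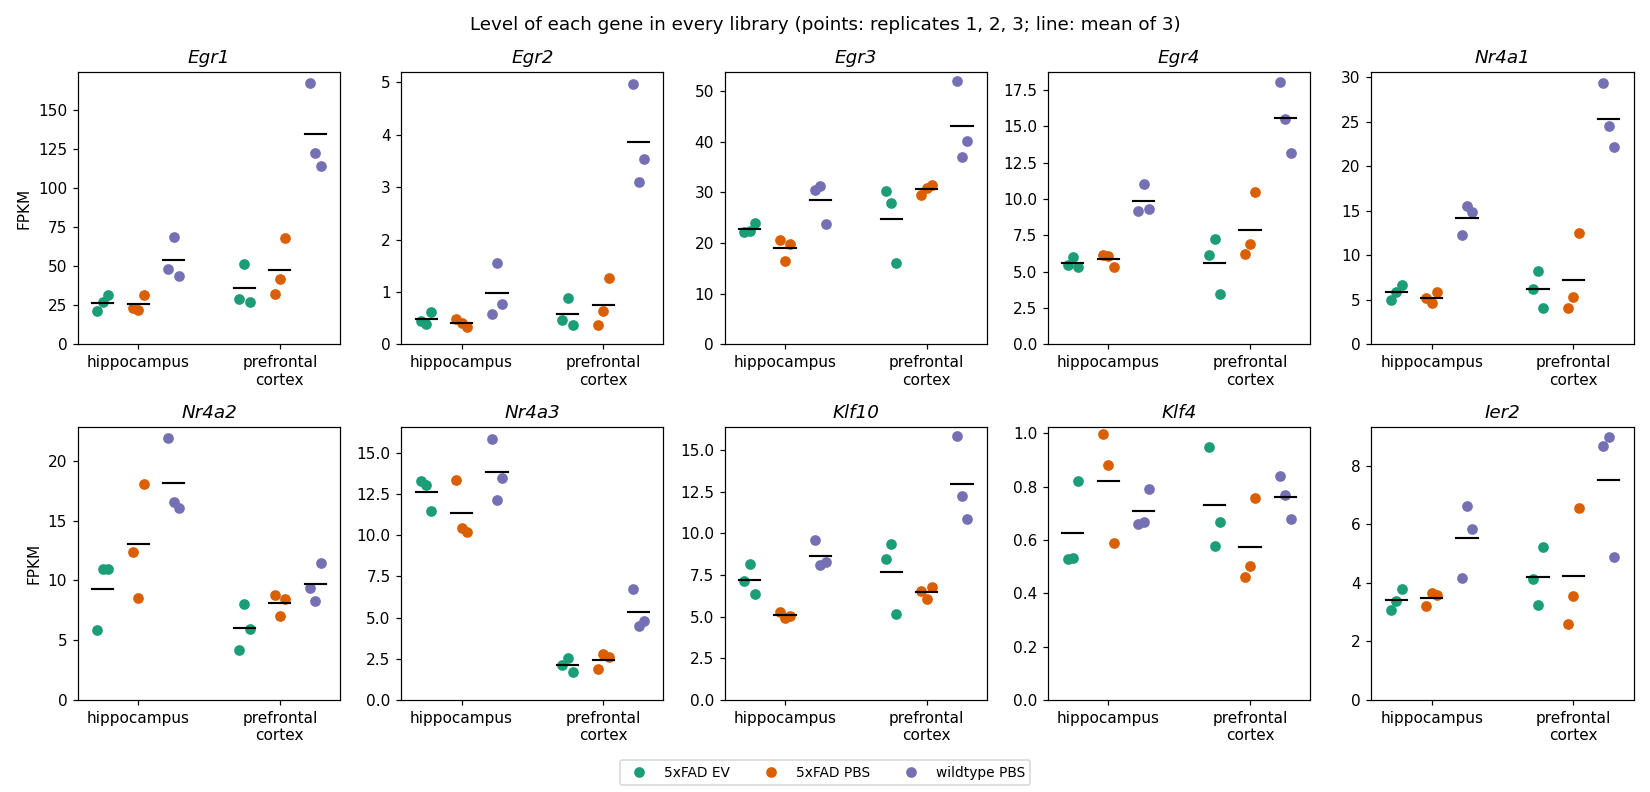
Level of each of the 10 genes in FPKM (linear axis from 0, a scale of its own for each gene) in hippocampus and prefrontal cortex, with 5xFAD EV, 5xFAD PBS and wildtype PBS from left to right, a point per library and a line at the mean of 3. The 3 wildtype prefrontal cortex libraries stand above all 6 5xFAD ones for 7 genes, as they do for 1.82% of all genes tested. Nr4a3 is higher in every hippocampal library (at least 10.2 FPKM) than in any cortical one (at most 6.74 FPKM).

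The libraries held 26437852 to 36901744 reads in listed genes, and the member values rest on 41 reads (Egr2, 5xFAD PBS hippocampus) to 18043 reads (Egr1, wildtype prefrontal cortex), so sampling limits mainly Egr2 in 5xFAD mice. Thy1, whose promoter drives the transgenes, followed the labelled genotype: in prefrontal cortex it had 768 to 1134 FPKM in 5xFAD EV, 1048 to 1151 FPKM in 5xFAD PBS and 433 to 494 FPKM in wildtype libraries, and in hippocampus the lowest 5xFAD library had 1075 FPKM and the highest wildtype one 506 FPKM. All 10 general neuron markers and all 8 glutamatergic markers passed the filter on low values (0.5 FPKM reached by 3 or more of a tissue's 9 libraries) in both tissues. 5xFAD EV replicate 3 of prefrontal cortex stood apart from replicates 1 and 2. Its chi-square per gene was 78.7 against replicate 1 and 71.1 against replicate 2, where those differed from each other by 19.9. Its choroid plexus markers summed to 1056 FPKM, with 85.3 and 67.7 FPKM in replicates 1 and 2, and its glutamatergic markers to 1503 FPKM, with 2612 and 2041 FPKM in those. Hippocampal libraries were uneven too. 5xFAD EV replicate 3 had chi-squares of 66.0 and 55.5 against replicates 1 and 2 (18.8 between those). 5xFAD PBS replicate 2 had 76.4 and 57.5 against replicates 1 and 3 (20.5 between those), and wildtype replicates 1 and 3 gave 56.9. Choroid plexus markers summed to 263 FPKM in that 5xFAD EV replicate 3 (6595 and 2654 FPKM in the others). In that 5xFAD PBS replicate 2 they summed to 9992 FPKM (3061 and 3244 FPKM in the others). In bulk tissue, fewer cells of a type and less RNA per cell cannot be told apart.

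In prefrontal cortex, 5xFAD PBS mice had less Egr1, Egr2, Nr4a1, Nr4a3 and Klf10 mRNA than wildtype mice given PBS, and the largest of these differences brought Egr2 and Nr4a1 to a fraction of the wildtype level. Differences are on the log2(FPKM + 0.5) scale, which understates the change of low genes, and calls are those of limma at a Benjamini-Hochberg adjusted p under 0.05 over all 13055 genes tested. By this rule 5 of the 10 members were lower and 0 higher. Over all genes 0.138% were called lower, which is 18 genes, 1.82% were called higher and 1.96% in either direction. Members were chosen with earlier results of these data known, so an excess over such shares, here and below, is not independent support. The members' median difference was -0.95, beside 0.02 over all genes tested, and all 10 differences were below 0. The 3 libraries of each group did not overlap for 7 members and for 14.7% of genes.

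Egr1, a zinc finger factor long used to map neuronal activity, had 29.3, 51.2 and 26.9 FPKM in 5xFAD EV libraries, 32.3, 41.9 and 68.1 FPKM in 5xFAD PBS libraries and 167, 122 and 114 FPKM in wildtype libraries. The 5xFAD groups overlapped each other and lay wholly below wildtype, and the difference of 5xFAD PBS from wildtype was -1.54 (SE 0.29, adjusted p = 0.023). Egr2, known for Schwann cell myelination and induced in forebrain neurons, had 0.471, 0.881 and 0.374 FPKM in 5xFAD EV libraries, 0.373, 0.644 and 1.26 FPKM in 5xFAD PBS libraries and 4.96, 3.09 and 3.53 FPKM in wildtype libraries. Every wildtype library was more than 2 times the highest 5xFAD value, and the 5xFAD PBS difference was -1.83 (SE 0.27, adjusted p = 0.005). Egr4, the family member most restricted to neurons, had 6.17, 7.21 and 3.48 FPKM in 5xFAD EV libraries, 6.21, 6.91 and 10.5 FPKM in 5xFAD PBS libraries and 18, 15.5 and 13.1 FPKM in wildtype libraries. No 5xFAD library reached the lowest wildtype value, yet the 5xFAD PBS difference of -0.96 (SE 0.25, adjusted p = 0.12) did not pass. Egr3, which shares targets with Egr1, gave 16.1 to 30.3 FPKM in 5xFAD EV libraries, 29.5 to 31.5 FPKM in 5xFAD PBS libraries and 37.1 to 52 FPKM in wildtype libraries, with a 5xFAD PBS difference of -0.47 (SE 0.21, adjusted p = 0.59) that did not pass although the groups did not overlap.

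Nr4a1, a ligand-independent nuclear receptor induced by calcium and cAMP, had 6.25, 8.31 and 4.08 FPKM in 5xFAD EV libraries, 4.07, 5.29 and 12.5 FPKM in 5xFAD PBS libraries and 29.4, 24.5 and 22.2 FPKM in wildtype libraries. The wildtype libraries were all above both 5xFAD groups, 5xFAD PBS replicate 3 came closest to them, and the 5xFAD PBS difference was -1.87 (SE 0.35, adjusted p = 0.021). Nr4a3 was at 2.11, 2.54 and 1.67 FPKM in 5xFAD EV libraries, 1.9, 2.77 and 2.63 FPKM in 5xFAD PBS libraries and 6.74, 4.51 and 4.79 FPKM in wildtype libraries. All 6 5xFAD values were below the wildtype ones, with a 5xFAD PBS difference of -0.99 (SE 0.18, adjusted p = 0.021). Nr4a2, required for midbrain dopamine neurons and also expressed in deep cortical layers, had 4.15 to 8.06 FPKM in 5xFAD EV libraries, 6.98 to 8.77 FPKM in 5xFAD PBS libraries and 8.27 to 11.4 FPKM in wildtype libraries. Its 5xFAD PBS and wildtype ranges overlapped, and the difference was -0.24 (95% interval -0.69 to 0.21).

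Klf10, a TGF-beta-inducible repressor, had 8.44, 9.38 and 5.16 FPKM in 5xFAD EV libraries, 6.55, 6.03 and 6.79 FPKM in 5xFAD PBS libraries and 15.8, 12.2 and 10.9 FPKM in wildtype libraries. Its 5xFAD PBS libraries lay close together and below every wildtype one, and the difference was -0.94 (SE 0.20, adjusted p = 0.04). Ier2 had 3.23 to 5.23 FPKM in 5xFAD EV libraries, 2.6 to 6.57 FPKM in 5xFAD PBS libraries and 4.88 to 9 FPKM in wildtype libraries, with wildtype replicate 3 inside the 5xFAD ranges and a 5xFAD PBS difference of -0.80 (SE 0.31, adjusted p = 0.46). Klf4 overlapped between these groups, with a difference of -0.24 (95% interval -0.58 to 0.09).

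These calls were fewer without any 1 of the 6 libraries, as were those over all genes (142 to 218, and 256 with all libraries). The differences then ranged from -1.84 to -1.30 for Egr1, -2.10 to -1.60 for Egr2 and -2.32 to -1.57 for Nr4a1. For Nr4a3 the range was -1.09 to -0.82 and for Klf10 -1.05 to -0.79. With 1 library left out at a time the count was 1 to 3: Egr2 was called in all 6 fits, Egr1 and Nr4a1 only without 5xFAD PBS replicate 3, Nr4a3 only without wildtype replicate 2, and Klf10 in none. Egr4 was called when only the groups compared were fitted (adjusted p = 0.034). Same-numbered 5xFAD PBS and wildtype libraries deviated together here, but not every library most closely with its own number. The numbers are thus not shown to pair the samples. A fit that blocked on replicate number called 2 members (Egr2 at adjusted p = 0.024 and Klf10 at 0.041). In it Egr1, Nr4a1 and Nr4a3 had adjusted p of 0.064, 0.065 and 0.0542. Without a filter on low values only Egr2 was called. In the same comparison 9 of 10 microglia markers were higher, with summed levels of 734 to 741 FPKM in 5xFAD PBS and 293 to 370 FPKM in wildtype libraries. The 10 neuron markers, with 0 called and a median difference of -0.02, summed to 3278 to 3567 FPKM in 5xFAD PBS and 3252 to 3666 FPKM in wildtype libraries. Striatal neuron markers varied between libraries (64.4 to 367 FPKM in 5xFAD EV, 223 to 319 in 5xFAD PBS and 131 to 404 in wildtype, with none of the 8 called or at 0, and a median difference of 0.32 for 5xFAD PBS minus wildtype). Their part in the result, and that of microglia, was not tested.

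In hippocampus, the comparison of 5xFAD PBS with wildtype mice gave lower Egr1, Egr3, Egr4, Nr4a1 and Klf10. Of the 10 members 5 were lower and 0 higher in limma, where 0.406% of the 13305 genes tested were called lower (54 genes) and 4.19% higher (4.59% in either direction). The median over the members was -0.62, beside 0.02 over all genes. The groups did not overlap for 7 members and for 25.5% of genes.

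Egr1 had 21.5, 27 and 31.9 FPKM in 5xFAD EV libraries, 23.3, 21.9 and 31.7 FPKM in 5xFAD PBS libraries and 48.4, 69 and 43.7 FPKM in wildtype libraries. No 5xFAD library came up to the lowest wildtype one, and the 5xFAD PBS difference was -1.04 (SE 0.20, adjusted p = 0.018). Egr4 had 5.47, 6.03 and 5.35 FPKM in 5xFAD EV libraries, 6.16, 6.08 and 5.34 FPKM in 5xFAD PBS libraries and 9.15, 11 and 9.31 FPKM in wildtype libraries. Spread was small in both 5xFAD groups, all their values were below wildtype, and the 5xFAD PBS difference was -0.70 (SE 0.10, adjusted p = 0.0046). Egr3 had 22.2, 22.3 and 23.9 FPKM in 5xFAD EV libraries, 20.6, 16.5 and 19.9 FPKM in 5xFAD PBS libraries and 30.5, 31.3 and 23.8 FPKM in wildtype libraries. All 5xFAD PBS values lay below wildtype, at a difference of -0.57 (SE 0.12, adjusted p = 0.026), whereas the highest 5xFAD EV library was level with the lowest wildtype one. Egr2, at 0.383 to 0.626 FPKM in 5xFAD EV libraries, 0.325 to 0.478 FPKM in 5xFAD PBS libraries and 0.581 to 1.56 FPKM in wildtype libraries, passed the filter on low values mainly through wildtype libraries, and its difference of -0.65 (SE 0.22, adjusted p = 0.15) did not pass.

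Nr4a1 had 5, 5.87 and 6.72 FPKM in 5xFAD EV libraries, 5.17, 4.63 and 5.9 FPKM in 5xFAD PBS libraries and 12.3, 15.5 and 14.9 FPKM in wildtype libraries. It separated the genotypes most clearly of the 10 in this tissue, with a 5xFAD PBS difference of -1.36 (SE 0.13, adjusted p = 0.00075). Nr4a2 had 5.86 to 11 FPKM in 5xFAD EV libraries, 8.57 to 18.1 FPKM in 5xFAD PBS libraries and 16 to 21.9 FPKM in wildtype libraries, and Nr4a3 had 11.5 to 13.3 FPKM in 5xFAD EV libraries, 10.2 to 13.4 FPKM in 5xFAD PBS libraries and 12.2 to 15.8 FPKM in wildtype libraries. Both overlapped between 5xFAD PBS and wildtype, at differences of -0.52 (95% interval -1.16 to 0.13) for Nr4a2 and -0.28 (95% interval -0.57 to 0.01) for Nr4a3.

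Klf10 had 7.16, 8.14 and 6.38 FPKM in 5xFAD EV libraries, 5.26, 4.94 and 5.06 FPKM in 5xFAD PBS libraries and 9.61, 8.08 and 8.28 FPKM in wildtype libraries. The 5xFAD PBS libraries differed among themselves by little and were below all others, at a difference of -0.71 (SE 0.11, adjusted p = 0.0052) from wildtype. Ier2 had 3.09 to 3.78 FPKM in 5xFAD EV libraries, 3.2 to 3.64 FPKM in 5xFAD PBS libraries and 4.17 to 6.61 FPKM in wildtype libraries. Its groups did not overlap, but the difference of -0.58 (SE 0.15, adjusted p = 0.067) missed the threshold. Klf4 was the only member with a difference above 0, 0.12 (95% interval -0.24 to 0.48).

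Egr4, Nr4a1 and Klf10 were called in all 6 fits that left out 1 library. Egr1 was lost without 5xFAD PBS replicate 1 or 2 or wildtype replicate 2, Egr3 without 5xFAD PBS replicate 2 or 3 or wildtype replicate 1 or 2, and Ier2 was called without wildtype replicate 1 (adjusted p = 0.015). Egr3 also missed the threshold when only the groups compared were fitted (adjusted p = 0.0505), and Ier2 passed under median-of-ratios scaling (adjusted p = 0.0453). Choroid plexus markers moved with this comparison: 8 of 10 were higher, and they summed to 3061 to 9992 FPKM in 5xFAD PBS and 91.2 to 234 FPKM in wildtype libraries, with 263 to 6595 FPKM in 5xFAD EV. Microglia markers, 9 of 10 higher, summed to 1042 to 1151 FPKM in 5xFAD PBS and 294 to 348 FPKM in wildtype libraries. Astrocyte markers, 2 of 8 called higher, summed to 1222 to 1356 FPKM in 5xFAD PBS and 875 to 1016 FPKM in wildtype libraries. Neuron markers, 0 of 10 called and with a median difference of -0.13, summed to 2360 to 2647 FPKM in 5xFAD PBS and 2559 to 2834 FPKM in wildtype libraries. Glutamatergic markers, 0 of 8 called, had 8 differences below 0 and a median of -0.19. Their sums did not overlap, at 2050 to 2270 FPKM in 5xFAD PBS and 2288 to 2491 FPKM in wildtype libraries. GABAergic neuron markers, 0 of 8 called at a median of -0.33, summed to 205 to 274 FPKM in 5xFAD PBS and 304 to 331 FPKM in wildtype libraries. None of these markers was at 0 in a hippocampal library, and their part in the result was not tested.

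Counting all 6 5xFAD libraries against the 3 wildtype ones, 7 members lay wholly below wildtype in prefrontal cortex (Egr1, Egr2, Egr3, Egr4, Nr4a1, Nr4a3 and Klf10), where 1.82% of genes tested did. In hippocampus 4 did (Egr1, Egr4, Nr4a1 and Ier2), where 4.24% of genes did. The difference between tissues in the 5xFAD PBS effect was itself tested, as hippocampus minus prefrontal cortex: 0 of 13574 genes were called (0.0%), 787 had an unadjusted p under 0.05, and among the members Egr2 gave 1.18 (95% interval 0.39 to 1.98) at an adjusted p of 0.57 and Nr4a3 gave 0.71 (95% interval 0.21 to 1.21) at 0.64. The other 8 members lay between -0.27 and 0.51, at adjusted p of 0.90 or more. The effect of genotype was therefore not shown to differ between tissues for any member.

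Vesicle treatment was set against PBS within 5xFAD mice. In prefrontal cortex no member was called: limma called 0 of 13055 genes (0.0%), with 616 genes and no member at an unadjusted p under 0.05, and voom on the recovered reads also called 0. The members' median difference was -0.18. All 10 members overlapped between the groups. Of all genes 10.6% did not, and 0 of 10 is near that share. Each interval is for a single gene, without adjustment, and rests only on how these samples spread. For Egr1 the difference of 5xFAD EV from 5xFAD PBS was -0.39 (95% interval -1.04 to 0.26), for Egr2 -0.19 (95% interval -0.79 to 0.40) and for Nr4a1 -0.11 (95% interval -0.89 to 0.66). Egr4 was at -0.47 (95% interval -1.03 to 0.08) and Nr4a2 at -0.43 (95% interval -0.88 to 0.02). Klf10, at 0.19 (95% interval -0.25 to 0.63), was among the 3 with a difference above 0, with Klf4 at 0.20 (95% interval -0.14 to 0.54) and Ier2 at 0.05 (95% interval -0.63 to 0.74). Egr3 was at -0.35 (95% interval -0.81 to 0.11) and Nr4a3 at -0.17 (95% interval -0.58 to 0.24). Striatal markers, 0 of 8 called, had a median difference of -0.93, and choroid plexus markers summed to 67.7 to 1056 FPKM in 5xFAD EV and 68.7 to 73.3 FPKM in 5xFAD PBS libraries, with 2 of the 10 at 0 in some 5xFAD PBS library. Their part in the members' values was not tested. Without 5xFAD EV replicate 3 again no member was called, and the difference was -0.22 for Egr1, -0.19 for Egr4, 0.14 for Nr4a1 and 0.44 for Klf10.

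In hippocampus the comparison of vesicles with PBS again gave no called gene (0 of 13305 in limma, 0.0%, with 519 genes at an unadjusted p under 0.05, and 0 by voom). Klf10 was the member with the largest difference upward: the 3 vesicle libraries were all above the 3 PBS libraries, by 0.46 (95% interval 0.22 to 0.70), with an unadjusted p of 0.0018 and an adjusted p of 0.87. Egr3 also did not overlap, at 0.26 (95% interval -0.01 to 0.53). These 2 members compare with 7.51% of all genes without overlap. Egr1 was at 0.06 (95% interval -0.39 to 0.52), Egr4 at -0.05 (95% interval -0.28 to 0.18) and Nr4a1 at 0.15 (95% interval -0.15 to 0.45). Nr4a2 varied most, with 5.86 to 11 FPKM under vesicles and 8.57 to 18.1 FPKM under PBS, and its difference was -0.46 (95% interval -1.10 to 0.18). Egr2 was at 0.11 (95% interval -0.39 to 0.62) and Nr4a3 at 0.16 (95% interval -0.13 to 0.44), while Klf4 was at -0.23 (95% interval -0.59 to 0.13) and Ier2 at -0.03 (95% interval -0.37 to 0.32). Choroid plexus markers, 0 of 10 called, summed to 263 to 6595 FPKM in 5xFAD EV and 3061 to 9992 FPKM in 5xFAD PBS libraries, and their part was not tested. The vesicle effect in hippocampus minus that in prefrontal cortex was called for 0 of 13574 genes (0.0%, with 680 at an unadjusted p under 0.05), and for Egr3 it was 0.61 (95% interval 0.06 to 1.16) at an adjusted p of 0.99. The other 9 members lay between -0.43 and 0.45, none of them called.

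**Figure D2:**
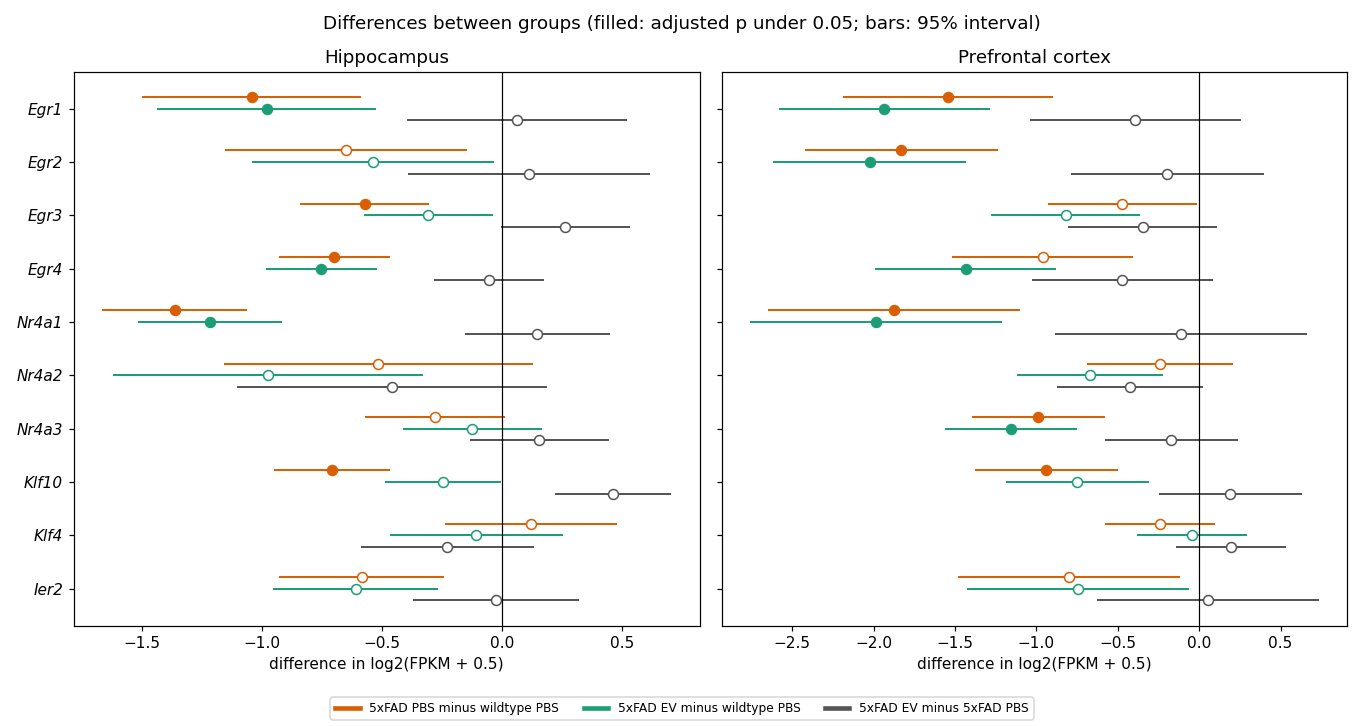
Difference of each gene in log2(FPKM + 0.5) between groups, in hippocampus (left) and prefrontal cortex (right, a wider axis), with 95% intervals from limma; filled points have an adjusted p under 0.05. Egr1 and Nr4a1 are filled for both 5xFAD groups against wildtype in both tissues, and the 5xFAD EV minus 5xFAD PBS points, none of them filled, lie between -0.47 and 0.46.

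Vesicle-treated 5xFAD mice were also compared with wildtype mice. This comparison shares its wildtype libraries with the one above, so the values stand beside it without adding independent evidence. In prefrontal cortex 5 members were lower and 0 higher, against 0.115% of genes called lower (15 genes), 1.4% higher and 1.52% in either direction. The groups did not overlap for 8 members and for 19.3% of genes. The 5 were Egr1 at -1.93 (SE 0.29, adjusted p = 0.0083), Egr2 at -2.03 (SE 0.27, adjusted p = 0.0039), Egr4 at -1.43 (SE 0.25, adjusted p = 0.018), Nr4a1 at -1.99 (SE 0.35, adjusted p = 0.019) and Nr4a3 at -1.16 (SE 0.18, adjusted p = 0.011). Klf10 was at -0.75 (SE 0.20, adjusted p = 0.12) and Egr3 at -0.82 (SE 0.21, adjusted p = 0.098), and neither passed. Nr4a2 was at -0.67 (95% interval -1.12 to -0.22), Ier2 at -0.75 (95% interval -1.43 to -0.06) and Klf4 at -0.04 (95% interval -0.38 to 0.29). Egr2 was called in all 6 fits that left out 1 library. Without wildtype replicate 1 it was the only member called, since the adjusted p was 0.0543 for Egr1, 0.11 for both Egr4 and Nr4a1 and 0.0528 for Nr4a3. Without 5xFAD EV replicate 1, Egr4 (adjusted p = 0.0506) and Nr4a1 (0.069) were not called, and Nr4a1 was also lost without wildtype replicate 3. Without 5xFAD EV replicate 3, which stood apart from its group, Egr1, Egr2, Egr4 and Nr4a3 were called and Nr4a1 had an adjusted p of 0.054. Without a filter on low values 3 members were called, Egr4 and Nr4a1 having an adjusted p of 0.058 and 0.062. Microglia markers, 7 of 10 higher in this comparison, summed to 539 to 738 FPKM in 5xFAD EV and 293 to 370 FPKM in wildtype libraries, and the striatal markers had a median difference of -0.63. Their part in the result was not tested.

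In hippocampus 3 members were lower in vesicle-treated 5xFAD than in wildtype mice, against 0.173% of genes called lower (23 genes), 1.93% higher and 2.1% in either direction. The groups did not overlap for 5 members and for 18.6% of genes. The 3 were Egr1 at -0.98 (SE 0.20, adjusted p = 0.04), Egr4 at -0.75 (SE 0.10, adjusted p = 0.0047) and Nr4a1 at -1.22 (SE 0.13, adjusted p = 0.0019). Egr4 and Nr4a1 were called in all 6 fits that left out 1 library, and Egr1 only without 5xFAD EV replicate 3. Egr1 was also lost without a filter on low values (adjusted p = 0.08) and when only the groups compared were fitted (0.0519). Ier2, at -0.61 (SE 0.15, adjusted p = 0.097), was called without wildtype replicate 1 (adjusted p = 0.022). Klf10 was at -0.25 (95% interval -0.49 to -0.01), Egr3 at -0.31 (95% interval -0.58 to -0.04) and Nr4a3 at -0.12 (95% interval -0.41 to 0.17), with adjusted p of 0.4, 0.33 and 0.78. Egr2 was at -0.54 (SE 0.22, adjusted p = 0.37) and Nr4a2 at -0.97 (SE 0.29, adjusted p = 0.18), and neither passed, while Klf4 was at -0.11 (95% interval -0.47 to 0.25). In this comparison 9 of 10 microglia markers were higher, summing to 803 to 1442 FPKM in 5xFAD EV and 294 to 348 FPKM in wildtype libraries. Of 8 astrocyte markers 2 were higher, summing to 1087 to 1417 FPKM in 5xFAD EV and 875 to 1016 FPKM in wildtype libraries. Choroid plexus markers, 0 of 10 called, had a median difference of 2.54 and summed to 263 to 6595 FPKM in 5xFAD EV and 91.2 to 234 FPKM in wildtype libraries. GABAergic markers, 0 of 8 called, had a median of -0.29. The part of these cells in the result was not tested.

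Within a group the same library was often highest or lowest for many members. In prefrontal cortex, 5xFAD EV replicate 3 was the lowest of its group for 7 members and replicate 2 the highest for 7. Replicate 3 is the library with more choroid plexus and less glutamatergic marker RNA, whose part in its low values was not tested. Among 5xFAD PBS libraries, replicate 3 was the highest for 8 members and replicate 1 the lowest for 8, and wildtype replicate 1 was the highest of its group for 8. Set against the wildtype mean of the tissue, the median of the 10 members was -1.13, -0.98 and -1.39 in the 5xFAD EV libraries and -1.26, -0.98 and -0.70 in the 5xFAD PBS libraries. In hippocampus it was -0.66, -0.64 and -0.44 in 5xFAD EV and -0.58, -0.70 and -0.63 in 5xFAD PBS libraries. The median over all genes tested stayed between -0.02 and 0.09 in every library.

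**Figure D3:**
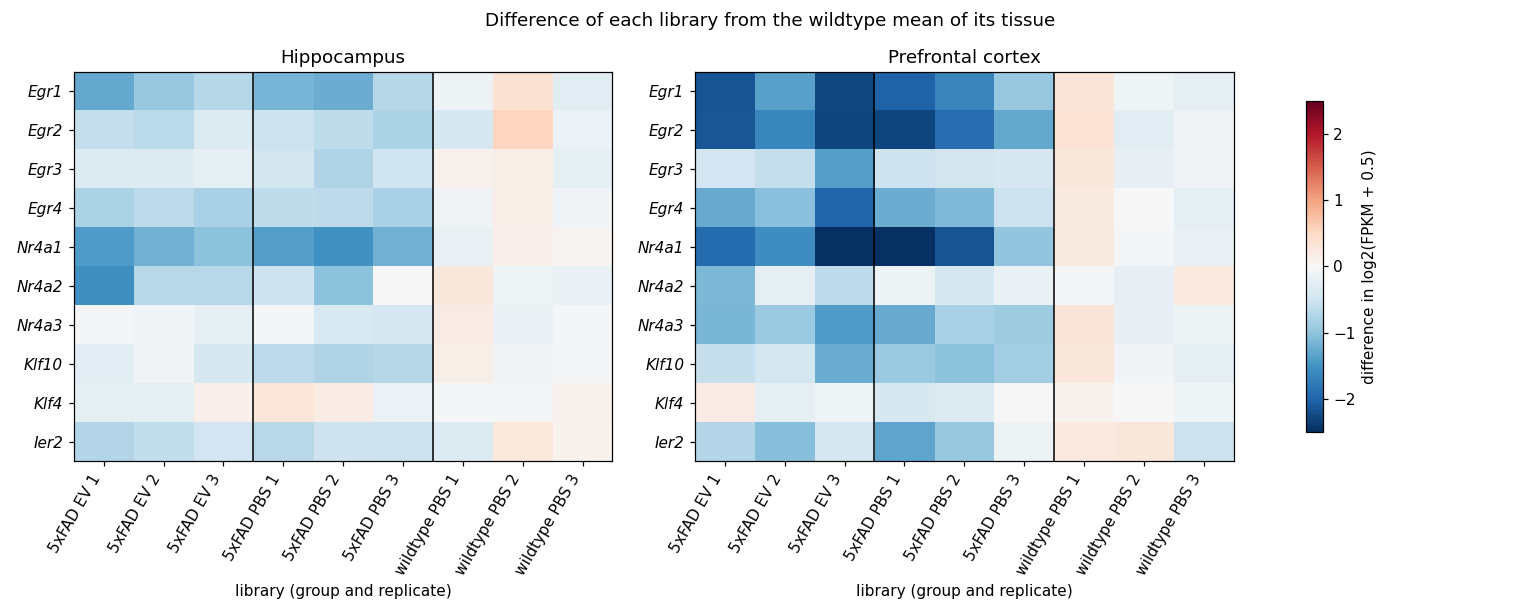
Difference of each library from the mean of the wildtype libraries of its tissue, in log2(FPKM + 0.5), for the 10 genes (rows) and the 9 libraries of hippocampus (left) and of prefrontal cortex (right), blue below and red above 0. Egr1, Egr2 and Nr4a1 are the darkest rows in cortex, 5xFAD PBS replicate 3 is paler than its group there (median -0.70), and Klf4 stays near 0.

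Hippocampus was compared with prefrontal cortex within each group, on all 18 libraries. Nr4a3 was higher in hippocampus in every group, by 2.34 (SE 0.17, adjusted p = 9.7e-08) in 5xFAD EV, 2.01 (SE 0.17, adjusted p = 5.8e-07) in 5xFAD PBS and 1.31 (SE 0.17, adjusted p = 4.7e-05) in wildtype mice. Its levels were 13.3, 13 and 11.5 FPKM in hippocampus and 2.11, 2.54 and 1.67 FPKM in prefrontal cortex of 5xFAD EV mice. In each group this call held in each fit that left out 1 library. Calls between tissues were common among the 13574 genes tested. In 5xFAD EV mice 16.9% were called, 8.6% higher and 8.32% lower in hippocampus, and 30.9% did not overlap. In 5xFAD PBS mice 25.1% were called, 15.3% higher and 9.78% lower, and 42.8% did not overlap. The 3410 genes behind the 25.1% were 2140 without hippocampus replicate 2 and 2273 without prefrontal cortex replicate 1. In wildtype mice 15.9% were called, 8.72% higher and 7.16% lower, and 33.8% did not overlap.

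In wildtype mice 6 members were called, with 2 higher and 4 lower in hippocampus, beside 15.9% of all genes called. The tissues did not overlap for 8 members and for 33.8% of genes. Nr4a2 was the other one higher, at 0.87 (SE 0.27, adjusted p = 0.036). Egr1 was lower at -1.32 (SE 0.28, adjusted p = 0.0033), with 53.7 ± 13.5 FPKM in hippocampus and 135 ± 28.4 FPKM in prefrontal cortex (SD, n = 3 each). Egr2 was lower at -1.60 (SE 0.26, adjusted p = 0.00049), Egr3 at -0.58 (SE 0.18, adjusted p = 0.041) and Klf10 at -0.55 (SE 0.17, adjusted p = 0.038). Egr4 at -0.63 (SE 0.21, adjusted p = 0.051) and Nr4a1 at -0.81 (SE 0.29, adjusted p = 0.075) did not pass, nor did Ier2 at -0.38 (SE 0.27, adjusted p = 0.39) and Klf4 at -0.06 (SE 0.16, adjusted p = 0.85). Egr4 did pass with a pseudocount of 1 FPKM, under median-of-ratios scaling, in voom and, with Nr4a1, when only the groups compared were fitted (adjusted p = 0.03 in voom). Egr1, Egr2 and Nr4a3 were called in all 6 fits that left out 1 library. In those fits Klf10 was called only without prefrontal cortex replicate 3 or hippocampus replicate 1, Egr3 only without prefrontal cortex replicate 2, and Nr4a2 only without prefrontal cortex replicate 3, where Egr4 was called as well (adjusted p = 0.0488). Without a filter on low values Egr3, Nr4a2 and Klf10 were lost and 3 members were called.

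In 5xFAD PBS mice 3 of the 10 members were called, near the 25.1% of all genes. The tissues did not overlap for 5 members, near the 42.8% of all genes. The 3 called were Nr4a3, Egr1 at -0.82 (SE 0.28, adjusted p = 0.04) and Egr3 at -0.68 (SE 0.18, adjusted p = 0.013). Egr1 was not called without a filter on low values (adjusted p = 0.065) or when only the groups compared were fitted (0.051), where Klf10 was called instead (0.039), and the replicate block added Nr4a2 (0.025). The other members were not called: Nr4a2 was at 0.60, Egr2 at -0.42, Egr4 at -0.36, Nr4a1 at -0.30, Klf10 at -0.31, Klf4 at 0.30 and Ier2 at -0.17. In fits that left out 1 library, Egr1 was called only without prefrontal cortex replicate 1 or hippocampus replicate 3, Egr3 was lost without hippocampus replicate 2 (adjusted p = 0.067), and Nr4a2 was called without that library (0.045). In 5xFAD EV mice Nr4a3 alone was called, where 16.9% of all genes were. There 1 member did not overlap, beside 30.9% of genes. Nr4a2 was at 0.57 (SE 0.27, adjusted p = 0.17) there and was called without hippocampus replicate 1 (adjusted p = 0.0493). Egr1 was at -0.37, Egr2 at -0.11, Egr3 at -0.07, Egr4 at 0.05 and Nr4a1 at -0.04 in these mice, and Klf10 was at -0.05, Klf4 at -0.13 and Ier2 at -0.25.

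Markers of many cell types differed between the tissues. Neuron markers were called lower in hippocampus for 3 of 10 in 5xFAD EV, where 1 was called higher, for 7 of 10 in 5xFAD PBS and for 2 of 10 in wildtype mice. Striatal markers were called lower for 3 of 8 in 5xFAD EV, 8 of 8 in 5xFAD PBS and 6 of 8 in wildtype mice, and GABAergic markers for 6 of 8 in 5xFAD EV, 6 of 8 in 5xFAD PBS and 4 of 8 in wildtype mice. Oligodendrocyte markers were called higher in hippocampus for 6 of 8 in 5xFAD EV, 6 of 8 in 5xFAD PBS and 7 of 8 in wildtype mice. Choroid plexus markers were called higher for 4 of 10 in 5xFAD EV, 10 of 10 in 5xFAD PBS and 1 of 10 in wildtype mice, microglia markers for 5 of 10 in 5xFAD EV, 4 of 10 in 5xFAD PBS and 0 of 10 in wildtype mice, and astrocyte markers for 1 of 8 in 5xFAD EV, 4 of 8 in 5xFAD PBS and 1 of 8 in wildtype mice. Their part in the differences between tissues was not tested.

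**Figure D4:**
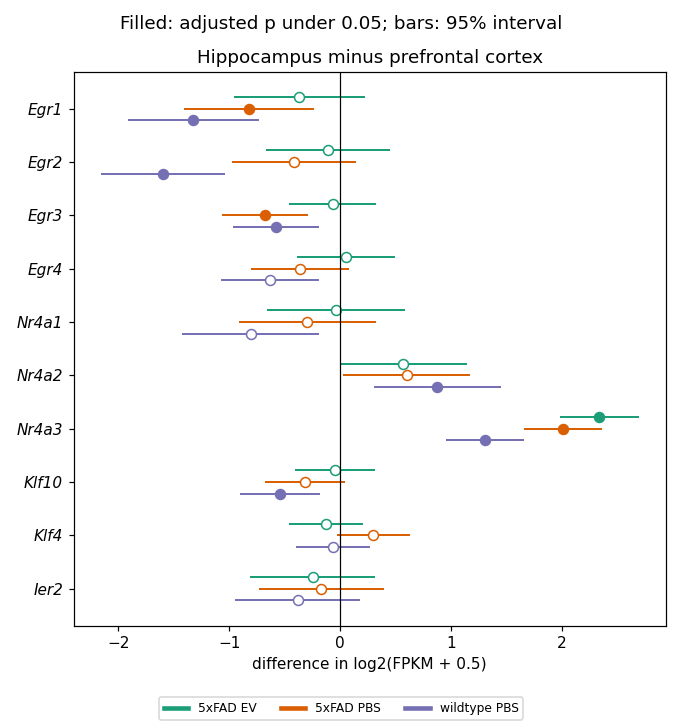
Hippocampus minus prefrontal cortex for each gene in log2(FPKM + 0.5), in 5xFAD EV, 5xFAD PBS and wildtype PBS mice from top to bottom within a gene, with 95% intervals from limma; filled points have an adjusted p under 0.05. Nr4a3 lies at 1.31 to 2.34 to the right of 0 in all groups, and the Egr1 and Egr2 points lie farthest left in wildtype mice, at -1.32 and -1.60.

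Other genes of the response were read from lists of activity-regulated genes and their regulators, also chosen with earlier results of these data known. Of 26 symbols for other immediate early genes, 25 were listed and 23 were tested in prefrontal cortex. Of those tested, 6 were lower and 0 higher in 5xFAD PBS than in wildtype mice, at a median of -0.79. The median over all genes was 0.02, and 0.138% of them were called lower. The 6 were Arc, a postsynaptic protein that takes up AMPA receptors (-2.31, adjusted p = 0.021), the MAP kinase phosphatases Dusp1 (-1.32) and Dusp6 (-0.93), the AP-1 subunits Fosb (-0.99) and Fosl2 (-1.05), and the pseudokinase Trib1 (-0.81). In hippocampus 24 were tested and 7 were lower, at a median of -0.42, where 0.406% of all genes were called lower. They were Arc (-1.50), Fos (-1.33), Fosb (-0.82), Junb (-0.75), Dusp5 (-0.98), Dusp6 (-0.50) and the growth arrest gene Gadd45b (-0.43). Atf3, a stress-induced factor, was the 1 gene higher there, where 4.19% of all genes were (0.88, adjusted p = 0.011). 5xFAD EV against wildtype mice gave 5 of 23 lower in prefrontal cortex, where 0.115% of all genes were called lower. In hippocampus it gave 7 of 24 lower, where 0.173% of all genes were. Vesicles against PBS gave 0 in both tissues, as over all genes.

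Late activity-regulated genes, which carry the effector functions, were lower for 2 of 19 tested in prefrontal cortex of 5xFAD PBS mice: the neurotrophin Bdnf (-0.71) and the constitutively active receptor Gpr3 (-0.86), at a median of -0.31 over the list and beside 0.138% of all genes called lower. In hippocampus 3 of 18 were lower, the neuropeptide Cort (-1.05), Gpr3 (-0.83) and the secreted precursor Vgf (-0.77), at a median of -0.29 and beside 0.406% of all genes. Vesicles against PBS gave 0 of this list in both tissues, as over all genes. Of 21 upstream factors tested (SRF, CREB, MEF2 and partners), 0 were called in cortex at a median of 0.02, near the 1.96% of all genes called there. In hippocampus 1 was lower, the SRF partner Elk1 (-1.31), and 1 higher, its relative Elk3 (0.76). With 0.406% of all genes lower and 4.19% higher in this comparison, 1 higher of 21 is near the background. The 8 partners of the EGR and NR4A proteins, among them the EGR co-repressors Nab1 and Nab2 and the retinoid X receptors, gave 0 calls in every comparison of groups within a tissue, as did the 12 tested of 15 other Klf genes. At most 4.59% of all genes were called in any of these comparisons, so 0 of 8 and 0 of 12 are near the background.

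Likeness of pattern was measured as the mean absolute difference in log2(FPKM + 0.5) over the 18 libraries, after centring each gene on its mean in each tissue, across 12841 genes. Nearest to Egr1 outside the 10 were Junb (0.218), Arc (0.239) and Dusp1 (0.242), beside a median of 0.651 over all genes, and the nearest member was Nr4a1 (0.168). Outside the 10, Egr2 lay nearest to Junb (0.252), Dusp6 (0.299) and Dusp1 (0.312), with a median of 0.598. Its nearest member, Egr1 (0.203), was nearer than these. For Nr4a1 the nearest was Arc (0.149), nearer than any member, followed by Dusp1 (0.262) and Junb (0.288), with a median of 0.760. Klf4, which varied little, was nearest to Smtn (0.103), Crot (0.104) and Bloc1s4 (0.105), and its nearest member was Egr3 at 0.302, farther than the median gene at 0.200.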

How the data were processed

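The authors deposited 1 table of FPKM for 18683 genes, and all 18 of its sample columns matched a sample by name. Per the submitters' processing notes, fastp, HISAT2, HTSeq and build GRCm39 were used, without versions; for annotation, strand and shared reads the choice is not given in the sources used here. FPKM values were whole multiples of a step per gene for 100% of genes (relative tolerance 1e-06), which gave the reads behind them. The filter kept genes that reached 0.5 FPKM in 3 or more libraries of the fit. log2(FPKM + 0.5) was fitted in limma 3.58.1 (R 4.3.3) with a mean per group, eBayes with trend, two-sided tests and Benjamini-Hochberg adjustment, over 9 libraries per tissue or all 18 between tissues, and the script was tested on simulated data.

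Replicates are not said to be separate mice, so p-values measure only how these samples spread, and that may be technical. Same-numbered libraries deviated together in all pairs (correlations of 0.213, 0.509 and 0.169) only for 5xFAD PBS and wildtype prefrontal cortex. Even there, not every library correlated most with its own number, and any pairing comes from the values. Alternatives were other pseudocounts, no filter, median-of-ratios scaling, voom on recovered reads, a replicate block, fits of the groups compared only, and leaving out each library.

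The rule for named genes took all 10 members (as a range for those not named in the 2 differences between tissues), Thy1 for the genotype, genes of the pathway lists that were called, and by likeness the 3 nearest to Egr1, Egr2, Nr4a1 and Klf4. Members and lists were chosen with earlier results of these data known.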

Additional observations from a re-analysis of the deposited data

How the results depend on the processing

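No member's difference that was called changed sign under any alternative run. Pseudocounts of 0.1 and 1 FPKM, median-of-ratios scaling, voom on recovered reads and fits of only the groups compared kept each count of called members within 1.5 times. Without a filter on low values, which adds genes to the adjustment, the count was 1 for 5xFAD PBS minus wildtype in prefrontal cortex, 3 for 5xFAD EV minus wildtype there and 3 for hippocampus minus prefrontal cortex in wildtype mice. With the replicate block it was 2 for 5xFAD PBS minus wildtype in prefrontal cortex and 2 for hippocampus minus prefrontal cortex in 5xFAD EV mice. Elsewhere the block moved no count by over 1.5 times, and in no comparison are the numbers shown to pair the samples. The block with only the groups compared, chosen after seeing the data, gave 5 for 5xFAD PBS minus wildtype in prefrontal cortex. Leaving out 1 library gave counts of 1 to 3 (5xFAD PBS minus wildtype, prefrontal cortex), 1 to 5 (5xFAD EV minus wildtype, prefrontal cortex), 3 to 5 and 2 to 3 (the same comparisons in hippocampus), and 1 to 2, 2 to 3 and 3 to 6 between tissues in 5xFAD EV, 5xFAD PBS and wildtype mice; the comparisons of vesicles with PBS gave 0 throughout. Over all genes these fits called 142 to 218 for 5xFAD PBS minus wildtype in prefrontal cortex (256 with all libraries) and 320 to 446 in hippocampus (611), and for 5xFAD EV minus wildtype 89 to 229 (198) and 159 to 278 (280). Between tissues they called 1626 to 2155 (2297) in 5xFAD EV, 2140 to 3320 (3410) in 5xFAD PBS and 1476 to 2178 (2156) in wildtype mice. The count of all genes moved by over 1.5 times without any one library of 5xFAD PBS minus wildtype except wildtype replicate 2 in prefrontal cortex and 5xFAD PBS replicate 3 in hippocampus. For 5xFAD EV minus wildtype it did so without 5xFAD EV replicate 1 (105), wildtype replicate 1 (89) or wildtype replicate 3 (129) in prefrontal cortex and without any wildtype library in hippocampus (159 to 173). Fitting only the groups compared called 118 of all genes for 5xFAD EV minus wildtype in prefrontal cortex and 1275 between tissues in 5xFAD EV mice (2297 with all groups), and 42 for the difference between tissues in the 5xFAD PBS effect, with 0 members. Depth limits mainly Egr2, at as few as 41 reads.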
